A study of Rattus norvegicus with 8 samples.

Results

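The enzymes of the pentose phosphate pathway were followed through 3 stages of the rat male germ line by RNA sequencing. The set was fixed by gene symbol as 9 named enzymes (H6pd, Pgls, Pgd, Rpia, Rpe, Tkt, Tktl1, Tktl2 and Taldo1), and all 9 were found among the 16764 symbols of the count table and passed the expression filter. The list is not the whole pathway, and other enzymes of it were not analysed here. Undifferentiated spermatogonia (USg) were a Brown Norway rat spermatogonial line expanded in SG medium, with 0 h in SD medium. Differentiating spermatogonia (DSg) were the same line after 120 h in SD medium, a medium with neuregulin-1 and all-trans-retinoic acid, and 7 days after plating on laminin. The spermatocyte-enriched group (Spc) came from primary Brown Norway testis cells, kept for 2.5 days in medium with 10% serum, and held the germ cells that stayed unattached on laminin once plastic and collagen-I had removed other cells. Each group had 2 libraries, and the labels do not say whether these came from separate cultures or animals, so p-values measure only the spread between these libraries, which may be technical. The extraction protocol places USg before plating on laminin whereas the USg sample titles carry T120, so stage, medium, laminin and time in culture cannot be told apart, and for Spc neither can source, selection and serum.

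The pentose phosphate pathway draws glucose 6-phosphate away from glycolysis. Its oxidative branch reduces NADP+ to NADPH, which feeds glutathione and thioredoxin reduction and lipid synthesis. It ends in ribulose 5-phosphate. Its non-oxidative branch interconverts pentose phosphates with the sugar phosphates of glycolysis, so that ribose for nucleotides can be made with or without NADPH. In the germ line NADPH supports defence against oxidants and ribose 5-phosphate supports DNA and RNA synthesis. The title of the series names this pathway and glutathione metabolism as coupled to gene networks of spermatogonia.

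Among the 9 enzymes, transketolase (Tkt) had the largest stage difference: it was low in DSg and high in USg and Spc. Tktl2, a transketolase-like gene, was higher in Spc than in either culture of the line. The pair of enzymes that share ribulose 5-phosphate went opposite ways in Spc against USg, the epimerase gene Rpe higher and the isomerase gene Rpia lower. No member of the oxidative branch passed the edgeR threshold in any comparison; at an unadjusted p under 0.05, 0 of 3 passed in DSg against USg (8.26% of all genes were higher and 10.9% lower), 1 was higher in Spc than in USg (23% of all genes were higher and 22.4% lower) and 1 in Spc than in DSg (20.5% and 19.3%). DESeq2 and limma-voom each called 1, H6pd, higher in Spc than in DSg. The 9 members summed to 559 and 807 CPM (read counts relative to library size, scaled by TMM factors) in USg 1 and USg 2, to 581 and 581 CPM in DSg 1 and DSg 2, and to 721 and 713 CPM in Spc 1 and Spc 2, so the summed level ranged more within USg than between DSg and Spc.

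Total counts ranged from 2657291 in DSg 1 to 5697165 in USg 2. The share of counts on ribosomal RNA genes was 7.81% in USg 1, 12.4% in DSg 1 and at most 0.733% elsewhere. In DSg 2, 96.7% of the 1045 olfactory receptor genes had a count, at a median of 4 counts, whereas the median was 0 or 1 in the other libraries. The lowest count of any of the 9 enzymes in DSg 2 was 36, for Pgls. The SD over genes of the log2 difference between the libraries of a group was 0.95 in USg, 0.95 in DSg and 0.43 in Spc. Of the stage markers, Spc was higher than USg in 10 of 10 spermatocyte genes and lower in 7 of 8 genes of undifferentiated spermatogonia, with Id4 higher (1.42, adjusted p = 0.0111). Of 4 genes of differentiating spermatogonia, 1 passed in DSg against USg, Kit, as higher (2.96), and 3 did not, among them Sohlh1 at -0.52, while 5 of 8 genes of undifferentiated spermatogonia were lower.

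**Figure D1:**
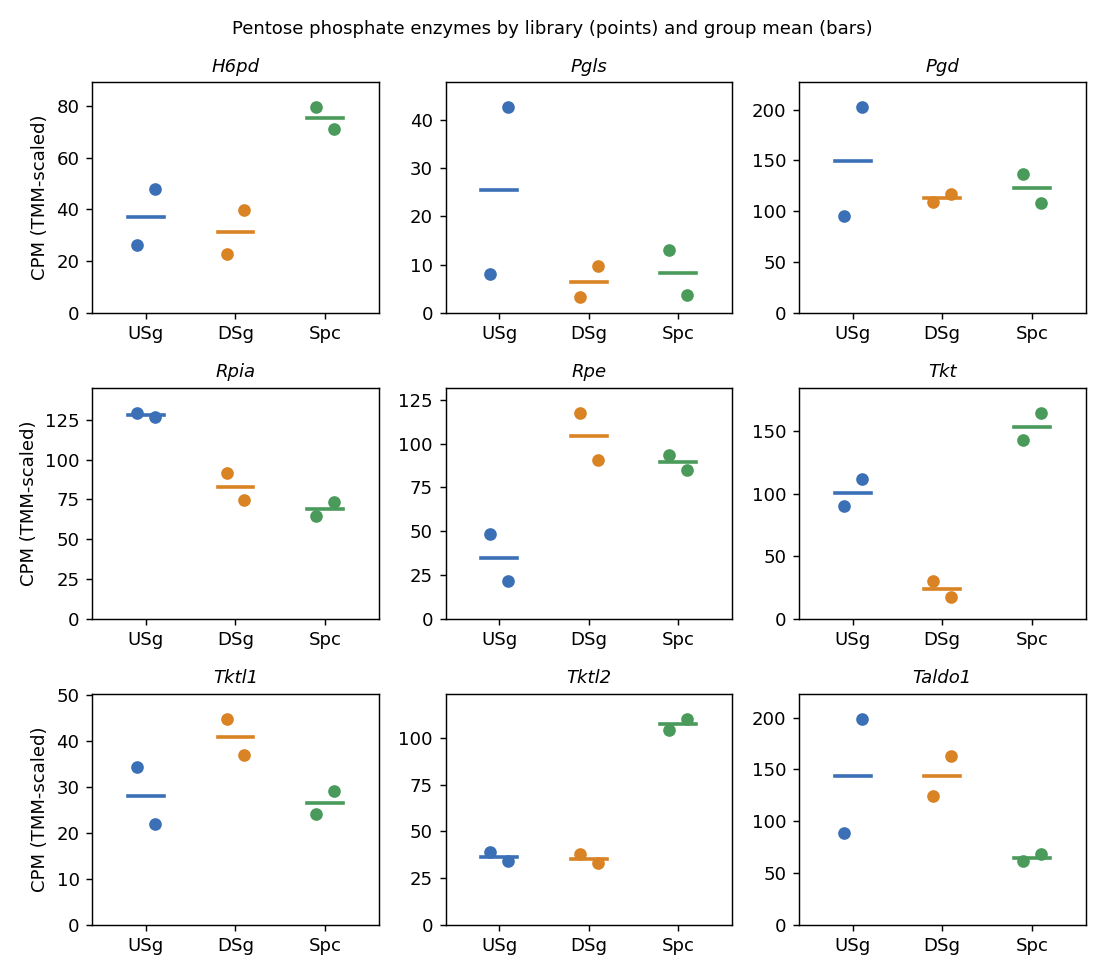
TMM-scaled CPM (vertical axes, from 0) of the 9 pentose phosphate enzymes in each library, as points, for USg, DSg and Spc, with the group means as bars. Tkt lay at 17.2 and 29.9 CPM in DSg, below every USg and Spc library, and Tktl2 lay at 104 and 110.2 CPM in Spc, above every other library.

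The calls of the 9 enzymes are given by comparison, beside the share of all genes that passed. In DSg against USg, 1 of 9 enzymes was lower and 0 higher by edgeR, where 2.48% of the 12210 genes tested passed the threshold (adjusted p under 0.05; 1.92% lower and 0.565% higher). At an unadjusted p under 0.05, 1 member was higher, as were 8.26% of all genes, and DESeq2 called 1 higher and limma-voom 0. In this comparison the median log2 fold change was -0.25 over the members and 0.01 over all genes. In Spc against USg, 2 enzymes were higher and 1 lower, where 34.5% of genes passed (17.9% higher and 16.6% lower), with medians of -0.07 and -0.04. In Spc against DSg, 2 were higher and 0 lower by edgeR, where 26.5% of genes passed (14.8% higher and 11.7% lower; 1 member was lower at an unadjusted p under 0.05, as were 19.3% of all genes, 1 by DESeq2 and 0 by limma-voom), with medians of 0.12 and -0.03. The counts of members called, 1, 3 and 2 of 9, differed between comparisons as the shares of all genes did, and no test of a difference between comparisons was run. Libraries of the groups did not overlap for 4 of 9 members in DSg against USg (42.3% of all genes), for 6 in Spc against USg (72.4%) and for 6 in Spc against DSg (71.1%). Single libraries moved these counts. In DSg against USg the edgeR calls of Tkt and of every other gene ended without DSg 1 or DSg 2. The log2 fold change of Tkt was then -2.74 and -1.75, so the lost call is not particular to Tkt. More members, and more genes in all, passed in this comparison without USg 1, Spc 1 or Spc 2. In Spc against USg fewer members passed without USg 2, DSg 1, DSg 2, Spc 1 or Spc 2, and more without USg 1. In Spc against DSg fewer passed without either Spc library and more without either USg library. The totals over all genes moved with the library left out as well. Comparisons that share a group share its libraries, so their values are not independent of each other.

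**Figure D2:**
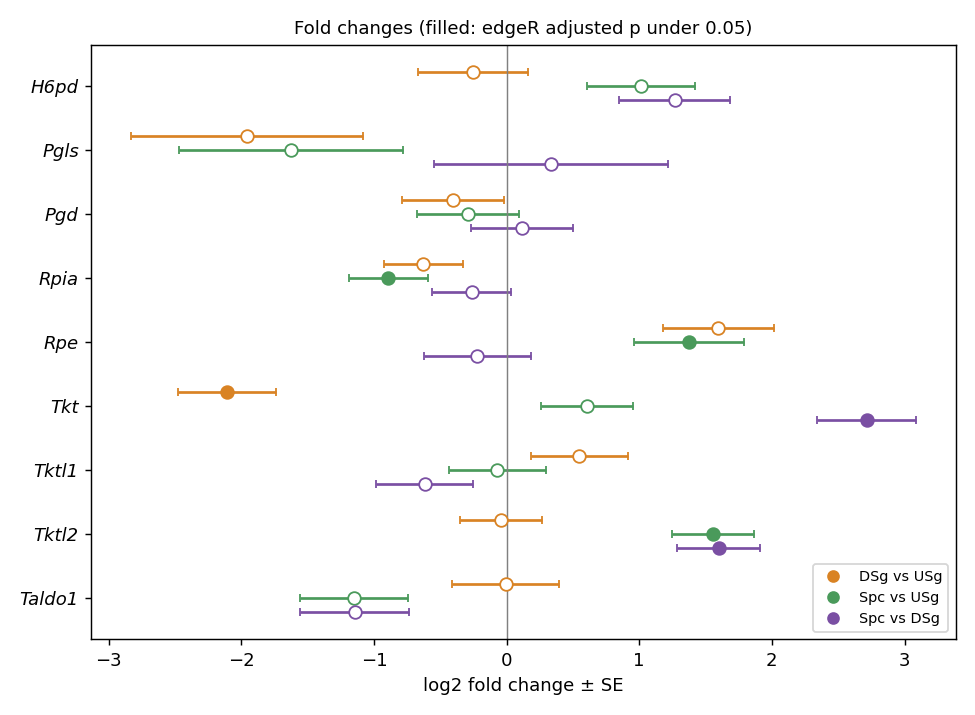
Log2 fold changes (horizontal axis) with SE of the 9 enzymes in DSg vs USg, Spc vs USg and Spc vs DSg, filled where the edgeR adjusted p was under 0.05. Tkt was filled at -2.11 in DSg vs USg and at 2.71 in Spc vs DSg, and Tktl2 was filled at 1.56 and 1.60 in the Spc comparisons.

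The oxidative branch was represented by 3 genes. Pgd encodes 6-phosphogluconate dehydrogenase, which makes ribulose 5-phosphate and NADPH in the cytosol. It had 95.7 and 203 CPM in USg, 109 and 117 CPM in DSg, and 137 and 108 CPM in Spc. The groups overlapped, since the USg libraries alone spanned the values of all the others. The log2 fold change was -0.40 ± 0.39 (SE) in DSg against USg (95% interval -1.28 to 0.47, edgeR adjusted p = 0.604), -0.29 ± 0.39 in Spc against USg (-1.16 to 0.58, 0.589) and 0.12 ± 0.39 in Spc against DSg (-0.76 to 0.99, 0.846).

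Pgls encodes 6-phosphogluconolactonase, which opens the lactone formed in the first step. It was the member with the fewest reads, at 21 and 240 counts in USg 1 and USg 2, 8 and 36 in DSg 1 and DSg 2, and 66 and 17 in Spc 1 and Spc 2. On the scaled level these were 8.10 and 42.7 CPM in USg, 3.23 and 9.69 CPM in DSg, and 13.0 and 3.70 CPM in Spc. Each group was uneven, and USg 2 stood above all the other libraries. The log2 fold changes, -1.96 ± 0.88 in DSg against USg (adjusted p = 0.265), -1.63 ± 0.84 in Spc against USg (0.164) and 0.33 ± 0.88 in Spc against DSg (0.805), did not pass the threshold. The value depended on single libraries: with USg 1 left out the adjusted p was 0.0162 in DSg against USg and 0.0101 in Spc against USg, with Spc 1 left out it was 0.0284 and 0.00848 in these comparisons, and with Spc 2 left out it was 0.0362 in DSg against USg, each time with the gene lower than in USg. With USg 2 left out the log2 fold change shrank to -0.36 in DSg against USg (0.894) and changed sign to 0.069 in Spc against USg (0.964). With no filter both comparisons with USg also passed (0.00250 for DSg and 0.00760 for Spc).

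H6pd encodes the hexose 6-phosphate dehydrogenase of the endoplasmic reticulum, which carries out the first steps of the oxidative branch in the lumen and supplies NADPH there to 11-beta-hydroxysteroid dehydrogenase. It had 26.2 and 47.7 CPM in USg, 22.6 and 39.6 CPM in DSg, and 79.6 and 71.0 CPM in Spc. Both Spc libraries were above all 4 libraries of the line, which overlapped among themselves. The log2 fold change was 1.01 ± 0.41 in Spc against USg (adjusted p = 0.0855) and 1.27 ± 0.42 in Spc against DSg (adjusted p = 0.0520), both short of the threshold, and -0.25 ± 0.41 in DSg against USg (0.778). Spc against USg passed as higher without USg 2 (log2 fold change 1.54, adjusted p = 0.0192) and with a replicate block (0.0397), whereas without USg 1 it shrank to 0.61 (0.288). Spc against DSg passed by DESeq2 (0.0272), by limma-voom (0.0407), with RLE scaling (0.0487), with no filter (0.0117), with a replicate block (0.0192) and when only 4 libraries were fitted (0.0208). It also passed without USg 1 or USg 2, which are not in this comparison, at log2 fold changes of 1.37 and 1.35. Without any library of the compared groups it did not pass. The log2 fold change was then 1.11 without DSg 1, 1.73 without DSg 2, 1.27 without Spc 1 and 1.43 without Spc 2. Hsd11b1 is the gene of the dehydrogenase that uses this NADPH. It was the 1 of 4 tested H6pd partner genes that was called, as higher in Spc, where 17.9% of all genes were higher than in USg and 14.8% higher than in DSg. Hsd11b1 had 91.2 and 98.8 CPM in Spc, against 3.47 and 0.178 CPM in USg (6.04 ± 0.99, adjusted p = 0.00217) and 0.404 and 4.85 CPM in DSg (5.03 ± 0.91, adjusted p = 0.00500, and 7.77 without DSg 2).

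Rpia and Rpe stand at the branch point, where ribulose 5-phosphate is isomerized to ribose 5-phosphate by Rpia or epimerized to xylulose 5-phosphate by Rpe. Rpia had 129 and 127 CPM in USg, 91.3 and 74.6 CPM in DSg, and 64.8 and 73.2 CPM in Spc. USg was above every DSg and Spc library, and DSg and Spc lay next to each other. In Spc against USg Rpia fell by 0.89 on the log2 scale (SE 0.30, adjusted p = 0.0454). In DSg against USg the log2 fold change was -0.63 ± 0.30 (adjusted p = 0.288) and in Spc against DSg it was -0.26 ± 0.30 (95% interval -0.94 to 0.41). The call in Spc against USg ended without USg 1 (adjusted p = 0.0856), USg 2 (0.0978), Spc 1 (0.476) or Spc 2 (0.370), and with a replicate block (0.0507) or no filter (0.130).

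Rpe ran the other way. It had 48.2 and 21.4 CPM in USg, 118 and 90.7 CPM in DSg, and 93.4 and 85.1 CPM in Spc. The 2 USg libraries were below all the others, and DSg and Spc overlapped. Rpe rose in Spc against USg by 1.38 ± 0.42 on the log2 scale (adjusted p = 0.0320). In DSg against USg it had a log2 fold change of 1.60 ± 0.42, larger than in Spc, that missed the threshold (adjusted p = 0.0886), with passes by DESeq2 (0.0124), with no filter (0.0286), with a replicate block (0.0215) and without USg 1 (0.0115). In Spc against DSg it was -0.22 ± 0.40 (95% interval -1.14 to 0.70). The call in Spc against USg ended without USg 2 (log2 fold change 0.90, adjusted p = 0.127), DSg 1 (0.0503), DSg 2 (0.0511), Spc 1 (0.155) or Spc 2 (0.0976), and when only the 4 libraries compared were fitted (0.0551).

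The ratio of Rpe to Rpia counts needs no scaling between libraries. It was 0.373 and 0.169 in USg 1 and USg 2, 1.29 and 1.22 in DSg 1 and DSg 2, and 1.44 and 1.16 in Spc 1 and Spc 2. Reads per gene also depend on transcript length, so the ratio compares libraries and does not say which transcript was more abundant. All 4 DSg and Spc libraries were at least at 1.16, against at most 0.373 in USg. With 2 libraries a group no permutation test of this single value can pass the threshold, and none was run.

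**Figure D3:**
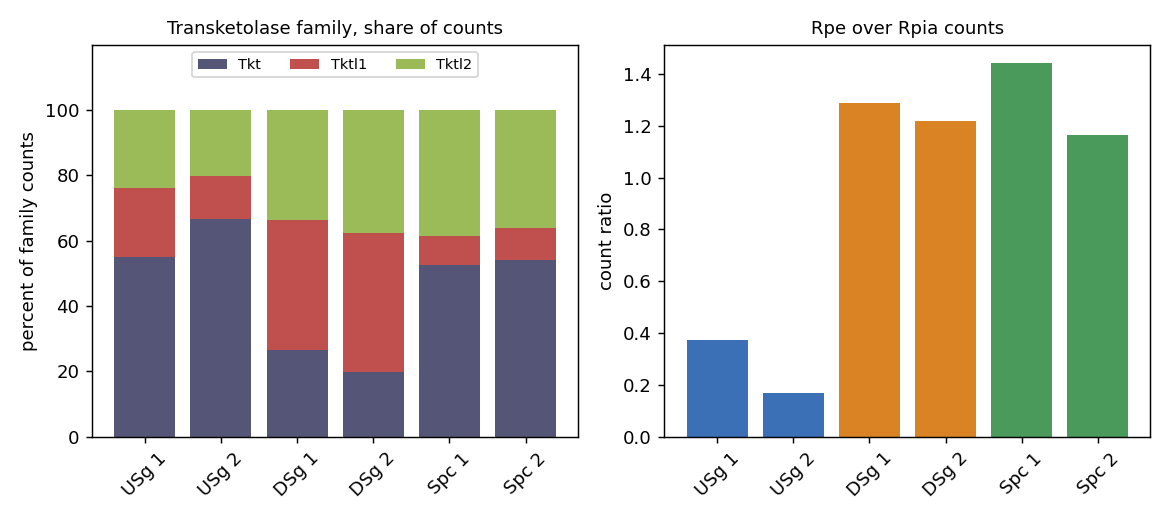
Left, the percent of transketolase-family counts that mapped to Tkt, Tktl1 and Tktl2 in each library; right, the ratio of Rpe to Rpia counts. Tktl1 took 39.8% and 42.4% of family counts in DSg, more than in any USg or Spc library, and the ratio was lowest in USg, at 0.373 and 0.169.

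Transketolase moves 2-carbon units between sugar phosphates with thiamine diphosphate as cofactor, and connects the pathway in both directions with glycolysis. Tkt is the gene of the general enzyme, Tktl1 an X-linked gene whose product is known in humans as a transketolase-like protein, and Tktl2 a related gene described as intronless and testis-expressed in humans. In rat assembly GRCr8, per RefSeq, Tkt and Tktl2 lie on chromosome 16 and Tktl1 on chromosome X.

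The start regions of the genes at the branch point and of the transketolase-like genes are shown because the Rpe to Rpia ratio and the transketolase family mix are described by stage. The 300-base windows (250 bases before an annotated start of the gene and 50 after) come from RefSeq on GRCr8, which is not the build named for the counts. Capitals mark matches, on either strand, to TGACNNNGC (the core of the antioxidant response element of NRF2), TGTTTAC (forkhead factors), CCAAT (the CCAAT box) and GGGCGG (the GC box). No 2 matches in these windows overlapped.
Rpia, chr4:104307669-104307968, minus strand: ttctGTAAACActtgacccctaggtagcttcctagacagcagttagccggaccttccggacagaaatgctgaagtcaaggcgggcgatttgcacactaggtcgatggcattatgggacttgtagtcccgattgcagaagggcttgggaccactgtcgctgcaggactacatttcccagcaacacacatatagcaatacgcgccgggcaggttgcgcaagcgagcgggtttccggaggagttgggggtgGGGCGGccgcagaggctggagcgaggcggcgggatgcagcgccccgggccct
Rpe, chr9:75640791-75641090, plus strand: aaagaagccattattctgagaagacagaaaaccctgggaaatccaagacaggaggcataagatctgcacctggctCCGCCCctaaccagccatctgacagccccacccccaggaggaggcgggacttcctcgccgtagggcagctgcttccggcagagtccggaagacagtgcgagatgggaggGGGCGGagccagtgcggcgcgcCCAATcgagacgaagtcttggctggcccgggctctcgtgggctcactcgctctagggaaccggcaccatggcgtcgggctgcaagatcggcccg
Tktl1, chrX:157105319-157105618, plus strand: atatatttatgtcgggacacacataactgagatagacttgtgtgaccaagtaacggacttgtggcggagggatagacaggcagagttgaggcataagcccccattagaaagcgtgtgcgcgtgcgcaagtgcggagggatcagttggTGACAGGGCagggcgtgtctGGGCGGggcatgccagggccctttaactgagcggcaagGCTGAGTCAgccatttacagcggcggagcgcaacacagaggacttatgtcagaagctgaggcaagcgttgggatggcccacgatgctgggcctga
Tktl2, chr16:27976275-27976574, minus strand: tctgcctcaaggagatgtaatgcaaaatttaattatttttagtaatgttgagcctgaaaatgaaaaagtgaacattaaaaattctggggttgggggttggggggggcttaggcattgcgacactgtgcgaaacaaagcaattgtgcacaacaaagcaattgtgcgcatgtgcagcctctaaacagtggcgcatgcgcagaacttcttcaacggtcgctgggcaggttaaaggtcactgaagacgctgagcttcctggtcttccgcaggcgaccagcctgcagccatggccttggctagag
The Tktl1 window held TGACNNNGC at -103 and -45 from the start, a motif found in 12.1% of all 33469 windows, and a GC box, which is in 33.1% of windows. The Tktl2 window, shown beside that of Tktl1 for comparison, held none of these motifs. The Rpe window held GC boxes at -175 and -66 and a CCAAT box (37.5% of windows) at -44, and the Rpia window held a forkhead match at -246 (3.78% of windows) and a GC box at the start itself. Windows were listed for 8 of the 9 members. The Tkt window is not shown, since its start lies 851 bases inside the outermost annotated start of the gene. Of the windows shown, the start lies 174 bases inside the outermost one for Rpe, 114 for Tktl1, 29 for Tktl2 and 14 for Rpia. The Tktl1 matches at -103 and -45, the Rpe matches at -66 and -44 and the Rpia GC box therefore lie after the outermost annotated start of their gene. None of the motifs was found in the Tkt window, which says, as for Tktl2, only that these letters are not in that window. A match is a description of letters and not of a bound site.

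Tkt itself had 89.9 and 111 CPM in USg, 29.9 and 17.2 CPM in DSg, and 143 and 165 CPM in Spc. The groups did not overlap, and the order of levels was Spc, then USg, then DSg. It averaged 23.6 ± 8.96 CPM in DSg and 101 ± 15.2 CPM in USg (SD, n = 2 libraries each) and in DSg fell by 2.11 ± 0.37 on the log2 scale (edgeR adjusted p = 0.0279). It rose by 2.71 ± 0.37, a fold of 6.56 (adjusted p = 0.00146), in Spc against DSg, at 154 ± 15.5 CPM in Spc. The step between Spc and USg, 0.61 ± 0.34, did not pass (adjusted p = 0.201). The call in DSg against USg ended when only the 4 libraries compared were fitted (adjusted p = 0.0814). It also ended without DSg 1 or DSg 2, as did the calls of all other genes. The log2 fold change was -2.74 and -1.75 in those 2 fits. The rise in Spc against DSg passed under every alternative that was run.

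Tktl1 showed no such decline. It had 34.3 and 21.9 CPM in USg, 44.8 and 36.9 CPM in DSg, and 24.0 and 29.2 CPM in Spc. Both DSg libraries were above the others, but by less than the threshold required. The log2 fold change was 0.55 ± 0.37 in DSg against USg (95% interval -0.28 to 1.38, adjusted p = 0.449), -0.62 ± 0.36 in Spc against DSg (-1.44 to 0.21, 0.238) and -0.07 ± 0.37 in Spc against USg (-0.90 to 0.76, 0.899).

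Tktl2 separated Spc from the line. It had 39.0 and 34.0 CPM in USg, 38.0 and 32.9 CPM in DSg, and 104 and 110.2 CPM in Spc. The USg and DSg libraries were interleaved, and the 2 Spc libraries lay far above them. Tktl2 rose by 1.56 ± 0.31 in Spc against USg (adjusted p = 0.00532) and by 1.60 ± 0.31 in Spc against DSg (adjusted p = 0.00666), with folds of 2.94 and 3.03. The log2 fold change in DSg against USg was -0.04 ± 0.31 (95% interval -0.75 to 0.66). The Spc calls ended without Spc 1 or Spc 2, at adjusted p of 0.0639 and 0.0741 against USg and of 0.0559 and 0.0682 against DSg, with log2 fold changes of 1.53 to 1.70.

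Within the transketolase family the mix of counts therefore differed by stage. Tktl1 made up 21.0% of family counts in USg 1 (exact binomial 95% interval 17.3 to 25.2) and 13.1% in USg 2 (11.0 to 15.4). Its share was 39.8% in DSg 1 (34.0 to 45.8) and 42.4% in DSg 2 (37.0 to 48.0), and 8.87% in Spc 1 (7.42 to 10.5) and 9.60% in Spc 2 (8.10 to 11.3). The intervals cover counting error only, and those of DSg did not meet those of the other stages. Tkt made up 55.1% and 66.6% of family counts in USg 1 and USg 2, 26.5% and 19.8% in DSg 1 and DSg 2, and 52.7% and 54.2% in Spc 1 and Spc 2. The family total was 163 and 167 CPM in USg, 113 and 87.0 CPM in DSg, and 271 and 304 CPM in Spc.

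Taldo1 encodes transaldolase, which moves 3-carbon units and completes the return of pentoses to glycolytic sugars. It had 88.7 and 199 CPM in USg, 124 and 163 CPM in DSg, and 61.7 and 67.9 CPM in Spc. The 2 Spc libraries were the lowest, and the DSg values lay between those of the 2 USg libraries. The log2 fold change was -1.15 ± 0.41 in Spc against USg (adjusted p = 0.0559) and -1.15 ± 0.41 in Spc against DSg (0.0682), both just short of the threshold, and -0.01 ± 0.40 in DSg against USg (95% interval -0.92 to 0.90). Spc against USg passed as lower by DESeq2 (0.0292), with upper quartile scaling (0.0453), with no filter (0.0337) and with a replicate block (0.0335). It also passed without USg 1, at a log2 fold change of -1.66. Without any other single library Spc against USg did not pass. The log2 fold change shrank to -0.44 without USg 2. It was -1.177 without DSg 1, -1.158 without DSg 2, -1.104 without Spc 1 and -1.217 without Spc 2. Spc against DSg passed as lower by DESeq2 (0.0329), with upper quartile scaling (0.0337), with a replicate block (0.0297) and when only 4 libraries were fitted (0.00894). It also passed without USg 1 or USg 2, which are not in this comparison, at log2 fold changes of -1.048 and -1.066. Without DSg 1, DSg 2, Spc 1 or Spc 2 it did not pass, at log2 fold changes of -1.149, -0.942, -0.998 and -1.146. The ratio of Tkt to Taldo1 counts was 1.01 and 0.561 in USg 1 and USg 2, 0.241 and 0.106 in DSg 1 and DSg 2, and 2.31 and 2.42 in Spc 1 and Spc 2.

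Markers of several testicular somatic cell types, though not of endothelial cells, were also higher in Spc. The 5 fibroblast genes in the table summed to 2423 and 2266 CPM in Spc, against 197 to 272 CPM in DSg and 208 to 486 CPM in USg, and 3 of the 4 tested were higher in Spc in both comparisons. The 9 Sertoli genes summed to 1372 and 1105 CPM in Spc, against 212 to 248 CPM in DSg and 409 to 461 CPM in USg, with 5 of 7 tested higher than in USg and 6 of 7 higher than in DSg. Most of the sum was Clu, at 1011 and 787 CPM in Spc and 292 and 381 CPM in USg. Amh, Fshr and Rhox5 were low, at most at 7.40 CPM in any library. The 4 peritubular myoid genes were all higher, at 293 and 332 CPM in Spc, against 36.8 to 44.7 CPM in DSg and 31.3 to 43.6 CPM in USg. The 5 Leydig genes summed to 162 and 171 CPM in Spc, against 9.29 to 18.8 CPM in DSg and 3.47 to 4.81 CPM in USg. Nearly all of that was Star, at 805 and 777 counts, whereas Insl3 had 1 and 0 counts and Cyp17a1 6 and 1. Of the 2 Leydig genes tested, Star was higher in Spc in both comparisons. The other, Cyp11a1, was lower in Spc than in DSg (-2.64, edgeR adjusted p = 0.0356) and was not called against USg (-1.30, 0.233). Macrophage genes reached 55.2 and 74.5 CPM in Spc, against 7.27 to 27.5 CPM in DSg and 8.90 to 12.7 CPM in USg. The 4 endothelial genes ran mostly the other way and summed to 27.8 and 37.2 CPM in Spc, against 49.3 to 54.7 CPM in DSg and 103 to 177 CPM in USg. In Spc against USg, Pecam1 (-3.63) and Kdr (-1.82) were lower and Cdh5 (3.16) was higher, and in Spc against DSg Pecam1 alone of the 4 passed, as lower (-2.11). Spermatocyte genes summed to 9186 and 9809 CPM in Spc, against 766 to 1337 CPM in DSg and 718 to 1134 CPM in USg. The part of these cells in the Tkt, Tktl2, H6pd, Rpe, Rpia and Taldo1 values of Spc was not tested, and fewer cells of a type and less RNA per cell cannot be told apart in bulk RNA.

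Genes whose log2 CPM followed Tkt most closely over the 6 libraries were the follistatin-like gene Fstl1, the actin cross-linker gene Flna and Phlda1, each with a Pearson r of 0.99. Fstl1 had 132 and 157 CPM in USg, 43.2 and 25.0 CPM in DSg, and 165 and 181 CPM in Spc. The closest to Tktl1 were Snhg4, a small nucleolar RNA host gene (r = 0.99), the mitochondrial protease gene Afg3l2 (r = 0.99) and the nucleotide sugar carrier gene Slc35d1 (r = 0.99). Snhg4 was near the floor, at 1.93 and 0.356 CPM in USg, 4.04 and 2.42 CPM in DSg, and 0.394 and 0.871 CPM in Spc. Afg3l2 had 221 and 121 CPM in USg, 358 and 274 CPM in DSg, and 152 and 183 CPM in Spc. With 3 groups of libraries such values describe a shared order of groups and carry no test.

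Other enzymes around the pathway were taken from lists of neighbours. Of 9 tested ribose and side-branch genes, 0 passed by edgeR in DSg against USg (0.565% of all genes were higher and 1.92% lower), and 0 by DESeq2 or limma-voom. At an unadjusted p under 0.05, 3 were higher and 0 lower there (8.26% and 10.9% of all genes). In Spc, 3 were higher than in USg (17.9% of all genes), and 1 was higher and 1 lower than in DSg (14.8% and 11.7%). Prps1l1, a testis form of the synthetase that turns ribose 5-phosphate into PRPP, had 16.2 and 18.1 CPM in Spc, against 2.02 and 2.96 CPM in DSg (2.74 ± 0.56, adjusted p = 0.00827) and 3 counts over both USg libraries. Its ratio of Spc to USg was 46.7 (exact binomial 95% interval 15.7 to 229, from summed counts and for counting error only). The edgeR fit gave a log2 fold change of 5.43 ± 0.70 (adjusted p = 7.45e-04). The phosphoglucomutase gene Pgm2 (2.72 ± 0.65) and the ribokinase gene Rbks (1.54 ± 0.38) were also higher in Spc than in USg, and Tigar, whose product lowers fructose 2,6-bisphosphate, was lower in Spc than in DSg (-1.32 ± 0.37). Without Spc 1 or Spc 2 the calls ended for Rbks (adjusted p = 0.151 and 0.0511), Tigar (0.404 and 0.182) and Prps1l1 in Spc against DSg (0.0634 and 0.103), and Tigar also lost its call without DSg 1 (0.147) or DSg 2 (0.0529) and with no filter (0.0667).

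Glycolytic enzymes that share sugar phosphates with the pathway were called in both directions. Of 12 tested by edgeR, 0 were higher (also 0 by DESeq2 and by limma-voom) and 1 was lower in DSg than in USg (0.565% and 1.92% of all genes). At an unadjusted p under 0.05, 0 were higher there (8.26% of all genes). In Spc, 4 were higher and 2 lower than in USg (17.9% and 16.6% of all genes), and 5 were higher and 1 lower than in DSg (14.8% and 11.7%). The platelet phosphofructokinase gene Pfkp had the same order of groups as Tkt, with 44.8 and 62.5 CPM in USg, 14.1 and 13.7 CPM in DSg, and 131 and 131 CPM in Spc. It was lower in DSg than in USg (-1.95 ± 0.34, adjusted p = 0.0276, but 0.100 when only 4 libraries were fitted) and higher in Spc than in DSg (3.23 ± 0.35, adjusted p = 5.08e-04). Its call in DSg against USg ended without DSg 1 or DSg 2, as did those of all other genes. The log2 fold changes were then -2.16 and -1.92. The hexokinase gene Hk2 (-2.08 ± 0.42) and the aldolase gene Aldoc (-1.50 ± 0.44) were lower in Spc than in USg. The liver phosphofructokinase gene Pfkl (1.71 ± 0.33 against USg, 1.67 ± 0.34 against DSg) and the fructose bisphosphatase gene Fbp1 (1.77 ± 0.45 and 3.19 ± 0.50) were higher in Spc, as was Aldoa in Spc against DSg (1.66 ± 0.40). In the comparison with USg, Fbp1 lost its call without Spc 1 (0.0612) or Spc 2 (0.0705), Pfkl without Spc 1 (0.0797) and Aldoc without any of USg 2 (log2 fold change -0.71, 0.196), DSg 1 (0.0578), DSg 2 (0.0532), Spc 1 (0.203) or Spc 2 (0.0759) and when only 4 libraries were fitted (0.0506). In the comparison with DSg, Pfkl lost it without Spc 1 (0.0877) and Aldoa without DSg 1 (0.0696) or DSg 2 (0.103).

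**Figure D4:**
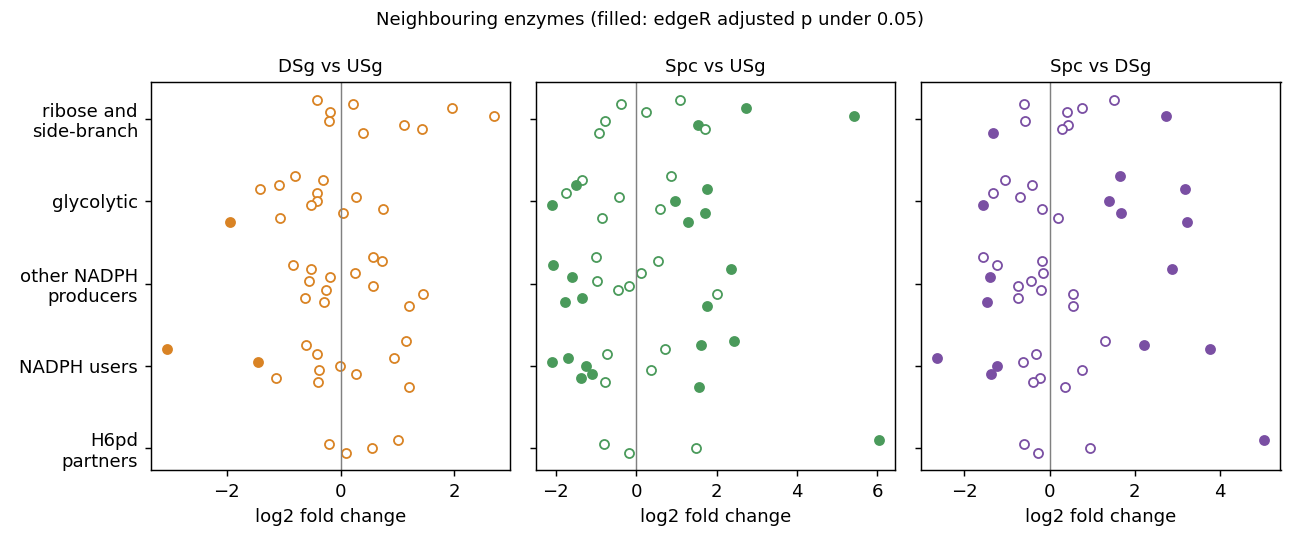
Log2 fold changes (horizontal axes) of every tested gene in the 5 neighbouring lists, 1 panel per comparison, filled where the edgeR adjusted p was under 0.05. In DSg vs USg 3 genes were filled, Pfkp, Cbr3 and Gsr, all below 0.

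The list of NADPH producers outside the pathway also held genes that do not mainly make NADPH. The NAD kinase genes make NADP+, and NADPH is not the main product of Me2 or Mthfd1l. Of 13 tested, 0 were called by edgeR in DSg against USg (0.565% of all genes were higher and 1.92% lower). At an unadjusted p under 0.05, 1 was higher and 0 lower (8.26% and 10.9% of all genes), and DESeq2 and limma-voom called 0. In Spc against USg 2 were higher and 4 lower (17.9% and 16.6% of all genes), and in Spc against DSg 1 was higher and 2 lower (14.8% and 11.7%). Both lower genes against DSg, Nadk2 and Me2, were of this kind, as were most of the lower genes against USg. The mitochondrial isocitrate dehydrogenase gene Idh2 had 30.2 and 37.2 CPM in Spc, against 3.64 and 5.39 CPM in DSg (2.87 ± 0.47) and 8.49 and 4.99 CPM in USg (2.36 ± 0.45). The cytosolic form Idh1 had 35.7 and 34.0 CPM in Spc, against 166 and 128 CPM in USg (-2.08 ± 0.46, adjusted p = 0.00894). The transhydrogenase gene Nnt was higher in Spc than in USg (1.75 ± 0.35), and the NAD kinase gene Nadk2 was lower than in USg (-1.77 ± 0.46) and in DSg (-1.47 ± 0.46), as was the malic enzyme gene Me2 than in DSg (-1.40 ± 0.37). The call of Nadk2 against USg ended without Spc 1 (adjusted p = 0.0663), Spc 2 (0.0749) or USg 1 (log2 fold change -1.15, 0.0609), and that of Nnt without Spc 2 (0.0648). Against DSg they ended for Nadk2 without DSg 1 (log2 fold change -0.84, 0.261), DSg 2 (0.0558), Spc 1 (0.197) or Spc 2 (0.195) and by limma-voom (0.0513), and for Me2 without DSg 1 (-0.76, 0.180), Spc 1 (0.140) or Spc 2 (0.235).

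Of 12 users of NADPH, 0 were called higher and 2 lower by edgeR in DSg against USg (0.565% and 1.92% of all genes). At an unadjusted p under 0.05, 2 were higher there (8.26% of all genes), and DESeq2 called 1 higher and limma-voom 0. In Spc, 3 were higher and 5 lower than in USg (17.9% and 16.6% of all genes), and 2 were higher and 3 lower than in DSg (14.8% and 11.7%). The glutathione reductase gene Gsr had 168 and 168 CPM in USg, 60.2 and 62.2 CPM in DSg, and 41.2 and 37.7 CPM in Spc. It fell by 1.46 ± 0.29 in DSg against USg (adjusted p = 0.0424) and by 2.09 ± 0.30 in Spc against USg (adjusted p = 0.00113). The carbonyl reductase gene Cbr3 shared the order of groups of Tkt, at 37.0 and 58.9 CPM in USg, 5.66 and 5.92 CPM in DSg (-3.05 ± 0.42 against USg), and 91.4 and 66.4 CPM in Spc (3.76 ± 0.42 against DSg). The fatty acid synthase gene Fasn was lower in Spc than in USg (-1.70 ± 0.40) and in DSg (-2.63 ± 0.42), as was the squalene epoxidase gene Sqle than in DSg (-1.38 ± 0.38). The biliverdin reductase gene Blvrb (2.44 ± 0.58 against USg) and the carbonyl reductase gene Cbr1 (1.62 ± 0.53 against USg and 2.22 ± 0.56 against DSg) were higher in Spc. In DSg against USg, Gsr and Cbr3 lost their calls without DSg 1 or DSg 2, as did all other genes. Their log2 fold changes were then -1.62 and -3.22 without DSg 1 and -1.48 and -3.08 without DSg 2. Gsr also lost its call without Spc 1 (log2 fold change -1.54) or Spc 2 (-1.51). It lost it too when only 4 libraries were fitted (adjusted p = 0.141) and with upper quartile (0.0556) or total-count scaling (0.0698). In Spc against USg, Blvrb lost its call without Spc 1 (0.0580) or Spc 2 (0.105), Fasn without Spc 2 (0.0511) and Cbr1 without USg 2 (0.117), Spc 1 (0.145) or Spc 2 (0.337) and with upper quartile (0.0612) or total-count scaling (0.0651). Fasn kept its call without USg 2, at a log2 fold change of -1.11 (0.0403). In Spc against DSg, Cbr1 lost it without DSg 2 (0.0862) or Spc 2 (0.151) and Sqle without DSg 1 (log2 fold change -0.84, 0.176), Spc 1 (0.264) or Spc 2 (0.153).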

How the data were processed

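RNA of 6 libraries, 2 per group, was analysed; 2 anti-Foxa2 chromatin immunoprecipitation samples were left aside. Values in the table the authors deposited are read counts by gene symbol, not normalized, as whole numbers and differing column totals show. Per the submitters' processing notes the tools included STAR 2.5.3a, featureCounts and Subread 1.4.6 and the builds rn6 and rn5; the role of each, the annotation and any strand setting: not given in the sources used here, so overlapping genes may share reads.

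Counts were filtered (filterByExpr, minimum count 10, minimum total 15; 12210 of 16764 symbols kept), scaled by TMM and fitted once over all 6 libraries (3 residual degrees of freedom) by the quasi-likelihood method of edgeR 4.0.16 in R 4.3.3. The p-values are two-sided, with Benjamini-Hochberg adjustment over all genes tested, and each SE was derived from the log2 fold change and its F statistic. Intervals use the t distribution of the fit. Alternatives included DESeq2 1.42.0 and limma-voom (limma 3.58.1). The procedure was also run on simulated counts, whose outcome is not given here. These counts gave every library the same gene profile apart from chosen genes. They therefore cannot speak to differences between libraries in quality or cell mix. The members and lists were chosen with earlier results of these data known, and the motifs after the windows were seen; a longer motif of nuclear respiratory factor 1, searched at first, was left out. Named genes were all members, up to 4 called genes per list and comparison, and the 3 genes closest to Tkt and Tktl1 (prior count 2, unnamed loci left out). Of the neighbour lists 1 ribose gene (Dera) and 1 H6pd partner (Slc37a3) were not analysed here.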

Additional observations from a re-analysis of the deposited data

How the results depend on the processing

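Of the log2 fold changes of the 9 enzymes under the alternatives, 376 kept their direction and side of the threshold, 45 passed it anew, 19 lost it and 28 changed sign. For the other named genes 519 kept both and 58 lost the threshold. For DSg against USg, where 303 genes and 1 enzyme passed, the numbers of genes were 199 with total-count scaling, 1044 with no filter, 781 by DESeq2, 90 in the fit of 4 libraries and 604 with a replicate block. The numbers of enzymes were 3 with no filter, 2 by DESeq2, 0 in the fit of 4 libraries and 2 with the block. For Spc against DSg, where 2 enzymes and 26.5% of all genes passed in the main fit, 4 enzymes passed by DESeq2, 4 in the fit of 4 libraries and 4 with the block. The shares of all genes in those other fits are not given here. Leaving out USg 1 and DSg 1 together, chosen after seeing the data, left the spread to the 2 Spc libraries: 6327 genes and 5 enzymes passed in DSg against USg, 8246 and 7 in Spc against USg, and 8292 and 4 in Spc against DSg. The cause of these changes was not tested.

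With each library left out in turn, 0 to 1501 genes and 0 to 3 enzymes passed in DSg against USg, 2258 to 4411 genes and 0 to 4 enzymes in Spc against USg, and 1642 to 4289 genes and 1 to 4 enzymes in Spc against DSg. Groups left with 1 library were assumed to vary like the others. Log2 fold changes that changed sign ranged, in DSg against USg, from -0.76 to 0.18 for H6pd, -0.98 to 0.18 for Pgd, -0.34 to 0.064 for Tktl2 and -0.61 to 0.63 for Taldo1. The ranges in Spc against USg were -2.82 to 0.069 for Pgls, -0.77 to 0.37 for Pgd and -0.35 to 0.24 for Tktl1. The ranges in Spc against DSg were -0.73 to 1.36 for Pgls, -0.41 to 0.066 for Rpia and -0.40 to 0.16 for Rpe.

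Scaling by the upper quartile or by total counts moved the median of all genes by 0.15 and 0.15 in DSg against USg and by -0.21 and -0.18 in Spc against DSg. With them Tktl2 was at 0.097 and 0.098 and Taldo1 at 0.17 and 0.16 in DSg against USg, and Pgd at -0.10 and -0.078 in Spc against DSg. Taldo1 in DSg against USg was also above 0 with RLE scaling (0.010), a filter of 5 CPM (0.037), DESeq2 (0.011), limma-voom (0.062), the fit of 4 libraries (0.035) and the replicate block (0.063). Without USg 1 and DSg 1, Tktl1 was at 0.25 in Spc against USg, and in Spc against DSg Pgls was at -0.072, Rpia at 0.0033 and Rpe at 0.095. Over Tkt and Tktl1 alone, the Tktl1 share was 27.6% and 16.4% in USg, 60.0% and 68.2% in DSg, and 14.4% and 15.1% in Spc.

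Replicate numbers did not pair the samples by the labels, and the deviations of same-numbered libraries correlated at 0.25 for USg and DSg, -0.27 for USg and Spc and 0.01 for DSg and Spc. A crossed pairing of USg and Spc, added after seeing the data, gave 5413 genes and 6 enzymes, against 3982 and 2 with the numbered pairing and 4482 and 2 with none. Pgls had the fewest reads of the 9 enzymes, at 8 to 240 counts, and its USg libraries differed by -2.33 on the log2 scale (USg 1 minus USg 2).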
